A study of Mus musculus with 4 samples.

Results

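The 10 genes described here are the Toll-like receptors Tlr1, Tlr2, Tlr3, Tlr4, Tlr6, Tlr7, Tlr8, Tlr9 and Tlr13 together with Cd14, the coreceptor that hands bacterial lipid to several of them. They were taken by name and not by a cut on measured values, though with earlier results of these data known. All 10 were listed in each of the 4 deposited matrices, among 19491 genes listed in at least 1 of them. CD45+ hematopoietic cells were sorted from the brain and from the dura mater, the outer membrane around the brain, of C57BL/6J mice that were 8 weeks old. In photothrombotic injury (PTI) the dye Rose Bengal is given and light through the skull clots the vessels beneath it. Libraries named D3 came from animals on day 3 after PTI and libraries named S3 from sham controls, which the deposited labels call CT. There was 1 library for each of brain S3, brain D3, dura S3 and dura D3, and the number of mice in a library was not given in the sources used here.

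Toll-like receptors are sensors of the innate immune system that recognise microbial molecules and some products of damaged cells, and signal through shared adaptors to nuclear factor kappa B and to interferon regulatory factors. Tlr1, Tlr2, Tlr4 and Tlr6 sit at the cell surface, where Tlr2 pairs with Tlr1 or Tlr6 to bind bacterial lipoproteins and Tlr4 binds lipopolysaccharide delivered by Cd14. Tlr3, Tlr7, Tlr8, Tlr9 and Tlr13 work in endosomes and bind nucleic acids. Within the central nervous system these receptors are known mainly from microglia and from the macrophages of its borders.

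After filters on cells 14098 cells were kept, between 2603 and 4438 per library, with median depths of 8252 unique molecular identifiers (UMIs) per cell in brain S3, 9320.0 in dura S3, 14269.5 in brain D3 and 14156 in dura D3. Pairs of libraries shared between 3 and 11 cell barcodes. Cells were clustered without the 10 genes and their pathway, and 24 of 30 clusters took the name of the list of marker genes they matched, so that a class with a cell type's name is to be read with the suffix -like. Another 2 clusters are called by a leading gene, as Cd209a+ cells and Cxcl3+ cells, and 4, with 440 cells, were left unnamed. Microglia held 12 of their 12 markers in at least 10% of cells of both brain libraries, and Ly6C hi monocytes 10 of 10 in all 4 libraries. A level is the summed UMIs of a gene in a class divided by all UMIs of that class, in UMIs per 1000000 (CPM), with an exact Poisson 95% interval in parentheses. In microglia, summed microglia markers stood at 23485 CPM in brain S3 and 15744 in brain D3, and infiltrating macrophage markers at 2472 and 8001. Classes are ranked within a library among those with at least 50 cells, and a smaller group is named with its number of cells. With 1 library per condition there is no replicate, so intervals cover counting error only, no test was made, and a difference between conditions cannot be told apart from a difference between libraries.

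Cd14 was the most counted of the 10 genes with 152893 UMIs in kept cells, followed by Tlr2 with 41869, Tlr7 with 7073 and Tlr13 with 6766. Tlr4 had 3097 UMIs, Tlr1 2184, Tlr6 1434, Tlr3 1369 and Tlr8 788. Tlr9 had 146 UMIs in all, no more than 27 in any class and library, so its class pattern could not be resolved at this depth. Counts by this 3′ method depend on the end of each transcript, so levels are compared between cells and not between genes.

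In GRCm38 coordinates with the GENCODE M21 annotation, 2 pairs of these genes are neighbours. Tlr1 (chromosome 5, 64924679 to 64933563, minus strand) lies 18467 bases from Tlr6 (chromosome 5, 64952031 to 64960097, minus strand). Tlr8 (chromosome X, 167242696 to 167264329, minus strand) lies 40599 bases from Tlr7 (chromosome X, 167304929 to 167330558, minus strand), and Tlr13 is elsewhere on chromosome X (106143204 to 106160493, plus strand). Tlr2 is on chromosome 3 (83836272 to 83841767, minus strand), Tlr4 on chromosome 4 (66827584 to 66930284, plus strand) and Tlr9 on chromosome 9 (106222598 to 106226883, plus strand). Tlr1 and Tlr6 are close relatives in sequence, so reads that match both could have been divided or dropped by the authors' counting.

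The 250 bases before a RefSeq start site are shown for Tlr1, Tlr6 and Tlr8 because each has a neighbour with another pattern over the cell classes. They are on GRCm38.p6, all on the minus strand and written 5′ to 3′, at chr5:64933559-64933808 for Tlr1, chr5:64959167-64959416 for Tlr6 and chrX:167264330-167264579 for Tlr8. Capitals mark matches, on either strand, to GAGGAA, a form of the site of the myeloid factor Spi1, or to the interferon-stimulated response element, searched as GAAA, any 2 bases and GAAA again.
Tlr1: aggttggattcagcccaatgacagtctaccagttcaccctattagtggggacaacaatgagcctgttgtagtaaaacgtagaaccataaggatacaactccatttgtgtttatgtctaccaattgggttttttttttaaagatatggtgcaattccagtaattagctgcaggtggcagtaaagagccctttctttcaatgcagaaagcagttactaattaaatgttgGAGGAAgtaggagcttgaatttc
Tlr6: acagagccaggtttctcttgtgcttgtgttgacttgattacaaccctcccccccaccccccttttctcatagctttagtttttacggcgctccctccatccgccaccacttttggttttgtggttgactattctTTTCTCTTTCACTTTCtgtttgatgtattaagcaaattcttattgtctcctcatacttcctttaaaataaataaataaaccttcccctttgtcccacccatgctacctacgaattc
Tlr8: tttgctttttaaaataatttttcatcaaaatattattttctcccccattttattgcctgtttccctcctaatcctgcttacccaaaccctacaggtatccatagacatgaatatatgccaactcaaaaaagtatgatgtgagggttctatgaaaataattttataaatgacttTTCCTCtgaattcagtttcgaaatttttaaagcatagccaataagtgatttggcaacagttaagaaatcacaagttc
The Tlr1 and Tlr8 windows each held 1 match to GAGGAA and 0 to the response element, and the Tlr6 window held 0 of the former and 2 overlapping matches to the latter. The table holds a second start site for Tlr1, inside the annotated gene, and one for Tlr6, at the 5′ end of the annotated gene, and both of those windows held 0 matches to either. The window of each gene that held a match is the one shown, a choice made after the matches were seen. Of 32851 mouse promoter windows of this length, 23.25% held GAGGAA and 2.977% held the response element. The annotation puts 5 bases of the Tlr1 window in an exon and 0 of the other 2 windows, and the Tlr6 window lies inside the annotated gene. RefSeq windows were matched for 7 of the 10 genes, all but Tlr4, Tlr7 and Cd14, and 4 of their 9 windows held GAGGAA.

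Tlr1 and Tlr6, which lie side by side, were highest in different cells. Tlr1 led in Lyve1- macrophages, the border macrophages rich in MHC class II, at 24.96 (19.4 to 31.6) CPM in brain S3, 25.2 (19.5 to 32.02) in brain D3, 30.2 (23.1 to 38.7) in dura S3 and 33.97 (27.8 to 41.1) in dura D3. It exceeded the next class beyond counting error in 3 of the 4 libraries, the exception being brain S3, where B cells held 20.7 (15.7 to 26.8). In dura D3 its interval overlapped that of a group of 20 infiltrating macrophages, at 22.3 (10.7 to 41.1). Tlr6 stood in neutrophils at 25.3 (18.2 to 34.3) in brain S3, 26.3 (16.5 to 39.9) in brain D3, 27.7 (20.7 to 36.4) in dura S3 and 24.7 (17.7 to 33.5) in dura D3. Neutrophils exceeded the next class beyond counting error in all but brain D3, where the Cxcl3+ cells, a small cluster, held 35.6 (20.4 to 57.8). In neutrophils Tlr1 stood at 3.09 in brain S3, 4.79 in brain D3, 1.07 in dura S3 and 6.63 in dura D3, so the class with most Tlr6 had little Tlr1.

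Tlr2, the shared partner of the pair, was counted in every myeloid class. Lyve1- macrophages held 462 (437 to 489) CPM in brain S3, 505 (478 to 533) in brain D3, 349 (324 to 376) in dura S3 and 379.5 (358 to 402) in dura D3. Ly6C hi monocytes, which are recruited from blood, held 312 (292 to 332) in brain S3, 394 (376 to 414) in brain D3, 509 (486 to 532) in dura S3 and 452 (434 to 472) in dura D3. The highest class was thus Lyve1- macrophages in both brain libraries and Ly6C hi monocytes in both dura libraries, although neutrophils of dura S3, at 496 (465 to 529.5), were not below the monocytes beyond counting error. In T cells Tlr2 stood between 3.83 and 14.7.

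Tlr2 was found in most cells that held a partner, and in most that did not. Among infiltrating macrophages of brain D3, 95.6% of cells with a Tlr1 UMI also had a Tlr2 UMI, beside 90.2% of cells without one. For Tlr6 the shares were 92.1% and 91.6%. Cells with a Tlr1 UMI had a median depth of 23576 UMIs beside 20951 for cells without, and the part of depth in the first pair of shares was not tested.

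Tlr4 was highest in Lyve1+ macrophages, the perivascular-type border macrophages, of all 4 libraries. The class held 41.7 (35.1 to 49.1) CPM in brain S3, 45.6 (36.9 to 55.9) in brain D3, 41.6 (36.5 to 47.3) in dura S3 and 45.9 (41.9 to 50.2) in dura D3. These 4 levels overlapped in their intervals, and they exceeded the next class beyond counting error in all libraries but brain D3, where the Cxcl3+ cells held 44.5 (27.2 to 68.8). In dura D3 the 33 Ly6C low monocytes, at 29.4 (13.4 to 55.8) from 9 UMIs, had an interval that overlapped as well. Microglia followed in brain S3 with 26.9 (22.7 to 31.8) and neutrophils in dura S3 with 22.9 (16.6 to 30.9). Lyve1- macrophages held 21.7 in brain S3, 16.9 in brain D3, 19.3 in dura S3 and 23.1 in dura D3. In T cells Tlr4 stood between 0.895 and 6.16, from at most 4 UMIs in a library.

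Lyve1+ macrophages were made of 2 clusters that differed in Tlr4 and Tlr7, so the class level depends on their shares. Cluster 13 held 117 of 217 cells in brain S3, 38 of 179 in brain D3, 115 of 412 in dura S3 and 143 of 617 in dura D3. In cluster 4 Tlr4 stood at 74.8 (58.5 to 94.1) CPM in brain S3, 57.4 (44.9 to 72.3) in brain D3, 48.3 (41.2 to 56.3) in dura S3 and 54.99 (49.7 to 60.7) in dura D3. In cluster 13 it stood at 28.5 (22.2 to 36.1), 27.3 (17.1 to 41.4), 31.6 (24.7 to 39.8) and 26.9 (21.6 to 33) in the same order, lower in 4 of 4 libraries. Tlr7 was also higher in cluster 4, at 156, 116, 148 and 130.1 beside 67.8, 58.4, 85.6 and 64.1 in cluster 13. Summed neutrophil markers stood between 23086 and 66719 CPM in cluster 13 and between 1157 and 3320.0 in cluster 4, and the median depth was 20539 UMIs per cell in cluster 13 beside 11716 in cluster 4. The part of these markers and of depth in the gap was not tested.

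Cd14 (chromosome 18, 36725067 to 36726798, minus strand) was found in at least 88.4% of cells in microglia, Ly6C hi monocytes and the macrophage classes of each library with 50 cells of them. Ly6C low monocytes of the brain were the exception, with 20.97% at S3 and 63.1% at D3. In Lyve1- macrophages it stood at 1015 (977 to 1053) CPM in brain S3, 1954 (1902 to 2008) in brain D3, 1278 (1229 to 1328) in dura S3 and 1528 (1485 to 1572) in dura D3. This was the highest class of every library, though Ly6C hi monocytes of dura S3, at 1248 (1212 to 1284), did not differ from it beyond counting error. Cd14 was found in 98.5% of infiltrating macrophages of brain D3 (exact binomial interval 97.7 to 99.1), against 12.2% of its T cells, which should lack it. The median depths were 21836 and 5961 UMIs per cell, and with each cell thinned to 2000 UMIs the shares were 81.96% and 2.29%. The Cd14 level in T cells was 13.4 in brain S3, 19.2 in dura S3, 66.8 in brain D3 and 26.7 in dura D3. In brain D3 it came from 59 UMIs in 16 of 131 cells, and its source was not tested. Summed neutrophil markers in T cells were likewise highest in brain D3, at 2889 beside 235 in brain S3.

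**Figure D1:**
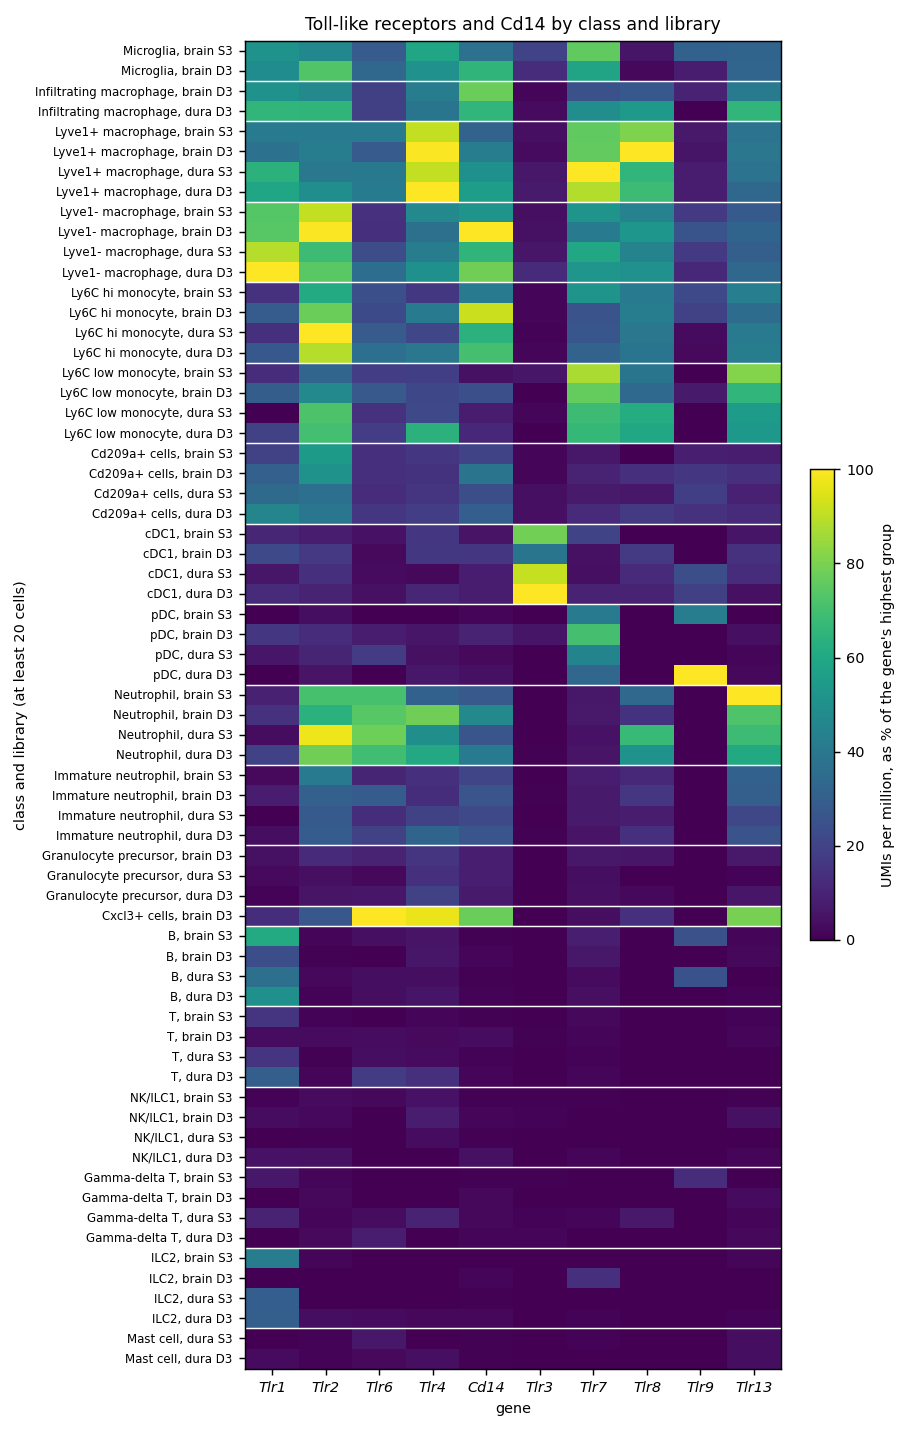
Level of each gene in the classes and libraries with at least 20 cells, as a percentage of that gene's highest group shown (colour scale, 0 to 100%). Proliferating cells, B cell precursors and migratory dendritic cells are not drawn. Each row is a class in 1 library and each column a gene. Tlr3 is highest in cDC1 of dura D3, Tlr4 and Tlr7 in Lyve1+ macrophages of the dura, Tlr1 and Cd14 in Lyve1- macrophages, Tlr6 in Cxcl3+ cells of brain D3 and Tlr13 in neutrophils of brain S3. The highest Tlr9 group, plasmacytoid dendritic cells of dura D3, rests on 3 UMIs.

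Of the endosomal receptors, Tlr3, the sensor of double-stranded RNA, was concentrated in conventional type 1 dendritic cells (cDC1), which take up dead cells. This class held 115 (88.4 to 147) CPM in brain S3, 56.7 (43.4 to 72.8) in brain D3, 133 (111 to 158) in dura S3 and 146 (125 to 169) in dura D3. The levels rest on 22, 50, 39 and 44 cells, and the interval of brain D3 lay below the other 3. Microglia came next in the brain, with 29.6 (25.1 to 34.7) in brain S3 and 18.3 (15.9 to 21.1) in brain D3. In the dura Lyve1- macrophages held 8.899 (5.27 to 14.1) in S3 and 17.3 (13 to 22.6) in D3, and Lyve1+ macrophages 9.31 and 10.5. Tlr3 (chromosome 8, 45395665 to 45411080, minus strand) overlaps a gene model on the other strand, Gm45542. No Tlr3 UMI was counted in B cells of any library, which in brain S3 allows up to 1.07 CPM at a floor of 3 counts.

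Tlr7, a sensor of single-stranded RNA, was high in border macrophages, microglia and patrolling monocytes. Lyve1+ macrophages held 92.8 (82.8 to 104) in brain S3, 93.2 (80.5 to 107) in brain D3, 123 (114 to 132) in dura S3 and 109 (103 to 115) in dura D3. Ly6C low monocytes held 107 (79.5 to 141) in brain S3 and 93.7 (79.3 to 110.0) in brain D3, which did not differ from Lyve1+ macrophages beyond counting error. Microglia held 92.7 (84.6 to 101) in brain S3 and 71.8 (66.9 to 77.1) in brain D3. In both dura libraries Lyve1+ macrophages exceeded Lyve1- macrophages beyond counting error. Their intervals overlapped those of Ly6C low monocytes, at 84.2 (57.99 to 118) from 43 cells of dura S3 and 81.7 (52.9 to 121) from 33 cells of dura D3. Plasmacytoid dendritic cells (pDC), known for Tlr7 and Tlr9, held 50.8 of Tlr7 in brain S3, 86.5 in brain D3, 55.2 in dura S3 and 40.3 in dura D3 from 22 to 41 cells, with at most 3 UMIs of Tlr9 in a library.

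Tlr8, the neighbour of Tlr7, was also high in Lyve1+ macrophages but nearly missing from microglia. Lyve1+ macrophages held 13.3 (9.702 to 17.8) in brain S3, 16.5 (11.4 to 23.1) in brain D3, 10.9 (8.35 to 13.96) in dura S3 and 11.3 (9.39 to 13.6) in dura D3. They led beyond counting error in both brain libraries, whereas in dura S3 neutrophils, at 11.2 (6.93 to 17.1), were not distinguishable from them. Microglia held 5 UMIs of Tlr8 in brain S3, a level of 0.962 (0.312 to 2.25), and 4 in brain D3, a level of 0.372 (0.101 to 0.953). Tlr7 was seen in 59.8% and 63.4% of these same cells.

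Tlr13, which binds bacterial ribosomal RNA, was high in neutrophils and Ly6C low monocytes. Neutrophils held 129 (112 to 148) CPM in brain S3, 93.3 (73.8 to 116) in brain D3, 88.5 (75.6 to 103) in dura S3 and 78.4 (65.5 to 93.1) in dura D3. Ly6C low monocytes held 105 (77.7 to 139) in brain S3 and 84.99 (71.3 to 100.5) in brain D3, and the Cxcl3+ cells of brain D3 held 102 (74.96 to 137), neither different from neutrophils of the same library beyond counting error. In dura D3 the 20 infiltrating macrophages held 84.9 (60.05 to 116), with an interval that overlapped that of neutrophils. In microglia and the Lyve1+, Lyve1- and infiltrating macrophages with at least 50 cells it lay between 36.3 and 53.1, a narrow band for classes that differ several-fold in Tlr3, Tlr7 or Tlr8. Immature neutrophils held 39.96 in brain S3, 39.1 in brain D3, 27.6 in dura S3 and 33.1 in dura D3, below the neutrophils of the same library each time.

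Among lymphoid cells, B cells held Tlr1 at 20.7 (15.7 to 26.8) CPM in brain S3, 8.14 (1.68 to 23.8) in brain D3, 12.5 (8.398 to 18.01) in dura S3 and 17.1 (9.11 to 29.2) in dura D3. Over the whole brain S3 library 356 UMIs of Tlr1 and 1158 of Tlr13 were counted, whereas its B cells held 58 of Tlr1 and 5 of Tlr13 and its T cells 23 and 5. The order of these counts in B and T cells was thus the reverse of that in the library as a whole. Type 2 innate lymphoid cells, with 7 and 1, had the same order as B and T cells. Natural killer cells and type 1 innate lymphoid cells, taken as 1 class, did not, with 1 of Tlr1 and 2 of Tlr13.

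The next comparison set D3 against S3 within each brain class that had at least 50 cells in both. A gene was called past 2-fold where its level differed by more than 2-fold with at least 20 UMIs over both libraries. Over 12 classes 75 pairs of gene and class had enough UMIs, of which 14 were past 2-fold higher at D3 and 5 lower, beside 4.02% higher and 5.49% lower of all gene and class pairs. The 14 were Cd14 in Ly6C hi monocytes, Ly6C low monocytes, B cells, T cells and the class of natural killer cells and type 1 innate lymphoid cells (NK/ILC1), Tlr4 in Ly6C hi monocytes, neutrophils and proliferating cells, Tlr1 in Ly6C hi monocytes and proliferating cells, Tlr2 in T cells, and Tlr3, Tlr6 and Tlr7 in proliferating cells. Cd14 in the B cells, T cells and NK/ILC1, which should lack it, stood at no more than 66.8 CPM, and Tlr3 in proliferating cells had a log2 ratio of -0.19 with cells thinned to 2000 UMIs. The 5 lower were Tlr1 and Tlr2 in B cells, Tlr1 in T cells, Tlr7 in Ly6C hi monocytes and Tlr9 in microglia. The intervals of Tlr1 and Tlr2 in B cells and of Tlr1 in T cells spanned 0. Of these, the direction turned for Tlr2 in B cells, to 1.31 with thinning, and for Tlr1 in T cells, to 0.57 with thinning and 0.31 with cells gated one by one. With at least 100 UMIs asked for, 4 were higher and 1 lower. Proliferating cells mix the lineages that divide, and 5 of their 8 counted genes were past 2-fold higher beside 6.64% of genes. Of these 5, Tlr1 and Tlr6 had intervals that spanned 0.

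Cd14 was higher at D3 beyond counting error in 12 of 12 brain classes, of which 3, the B cells, T cells and NK/ILC1, should lack it. Those 3 had levels between 10.4 and 66.8 CPM over both libraries, and over the other 9 classes the log2 ratios ran from 0.34 to 2.45 with a median of 0.81. Microglia held 728 (705 to 752) CPM at S3 and 1278 (1257 to 1300.0) at D3, a log2 ratio of 0.81 (0.76 to 0.86) where the median of all genes was -0.18. In Lyve1- macrophages the levels were 1015 and 1954, a log2 ratio of 0.95 (0.88 to 1.01). Neither passed 2-fold, and of 9 genes counted in microglia 0 were past 2-fold higher beside 5.24% of genes. Lyve1+ macrophages had a smaller ratio, with levels of 619.5 and 825 and a log2 ratio of 0.41 (0.32 to 0.51). In Cd209a+ cells, named for a lectin of dendritic cells, the levels were 400.2 and 755, a log2 ratio of 0.92 (0.82 to 1.01).

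Monocytes showed the largest myeloid ratios. In Ly6C hi monocytes Cd14 stood at 812 (781 to 845) at S3 and 1795 (1754 to 1836) at D3, a log2 ratio of 1.14 (1.08 to 1.21), with 3 of 8 counted genes past 2-fold higher beside 4.78% of genes. In Ly6C low monocytes it stood at 87.8 (63.04 to 119) in 62 cells and 481 (447 to 516) in 195 cells, a log2 ratio of 2.45 (1.998 to 2.94), in a class where 6.01% of genes were past 2-fold higher. The S3 level rests on 41 UMIs, and the log2 ratio was 1.603 with doublets kept, 1.64 with no filter on cells and 0.36 with cells gated one by one. Neutrophils held 547 (512 to 584) and 918 (854 to 985), a log2 ratio of 0.75 (0.61 to 0.89), and immature neutrophils 409.6 and 517, a log2 ratio of 0.34 (0.16 to 0.52).

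Genes induced while tissue is dissociated were lower at D3 in most of these classes. The summed level of 12 such genes, Fos and Jun among them, had a log2 ratio of -1.13 in Ly6C hi monocytes, -0.92 in microglia, -0.81 in neutrophils and -0.29 in Lyve1- macrophages of the brain, and 0.12 in Lyve1+ macrophages. Summed neutrophil markers stood at 3078 and 7059 CPM in Ly6C hi monocytes of S3 and D3, and at 1631 and 3947 in microglia. Their part in the Cd14 ratios was not tested.

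Of the other surface receptors, Tlr2 was higher at D3 in microglia, at 238 (225 to 252) and 371 (359 to 382), a log2 ratio of 0.64 (0.55 to 0.73). In Ly6C hi monocytes Tlr2 stood at 312 and 394, a log2 ratio of 0.34 (0.22 to 0.46), while in immature neutrophils it was lower, at 209.8 and 156, a log2 ratio of -0.43 (-0.72 to -0.14). In Ly6C hi monocytes Tlr4 stood at 7.36 (4.67 to 11.04) and 18.8 (14.9 to 23.5), a log2 ratio of 1.36 (0.67 to 2.095), on 23 and 78 UMIs. With cells thinned to 2000 UMIs that ratio was 0.023, where Tlr4 was seen in 6 cells at S3 and 8 at D3. Tlr1 of the same monocytes stood at 4.8 (2.69 to 7.92) and 9.902 (7.11 to 13.4), a log2 ratio of 1.04 (0.16 to 2.004), on 15 and 41 UMIs. In neutrophils Tlr4 stood at 14.2 (9.0 to 21.3) and 35.9 (24.2 to 51.2), a log2 ratio of 1.34 (0.51 to 2.19), the single gene of 6 past 2-fold higher beside 2.95% of genes.

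The endosomal receptors had intervals that spanned 0 in 19 of 28 pairs of gene and brain class with enough UMIs, and lay beyond counting error above 0 in 4 pairs and below 0 in 5. Of the 4 higher, 3 were in proliferating cells, where Tlr7 stood at 4.21 and 23.7, a log2 ratio of 2.49 (1.598 to 3.51), Tlr13 had 0.77 (0.26 to 1.29) and Tlr3 had 3.59 (1.59 to 6.71) on 2 and 25 UMIs. In Ly6C hi monocytes Tlr7 stood at 63.4 (54.8 to 72.8) at S3 and 31.4 (26.2 to 37.3) at D3, a log2 ratio of -1.01 (-1.34 to -0.69), the single gene of 8 past 2-fold lower beside 4.78% of genes. In microglia Tlr7 had a log2 ratio of -0.37 (-0.53 to -0.20) and Tlr3 of -0.69 (-1.004 to -0.38). Tlr9 of microglia was the single gene of 9 past 2-fold lower beside 5.79% of genes, on 14 UMIs at S3 and 7 at D3, or 2.69 and 0.651 CPM. Tlr13 was lower in neutrophils, with a log2 ratio of -0.47 (-0.86 to -0.085), and higher, as the fourth pair, in Cd209a+ cells, at 10.6 and 17.4, with 0.72 (0.11 to 1.37). In Lyve1+ macrophages of the brain all 9 receptors had intervals that spanned 0, though Tlr9 rests on 2 and 1 UMIs. Tlr4 had 0.13 (-0.26 to 0.52), Tlr7 0.0067 (-0.26 to 0.27) and Tlr13 0.056 (-0.31 to 0.42). These ratios mix clusters 4 and 13, which held 100 and 117 cells at S3 and 141 and 38 at D3. In cluster 4 Tlr7 stood at 156 (132 to 183) CPM at S3 and 116 (97.55 to 136) at D3. In cluster 13 it stood at 67.8 and 58.4. Tlr4 stood at 74.8 and 57.4 in cluster 4 and at 28.5 and 27.3 in cluster 13. Tlr13 stood at 47.8 and 48.6, and at 49.6 and 54.7. The change within each cluster was not tested.

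**Figure D2:**
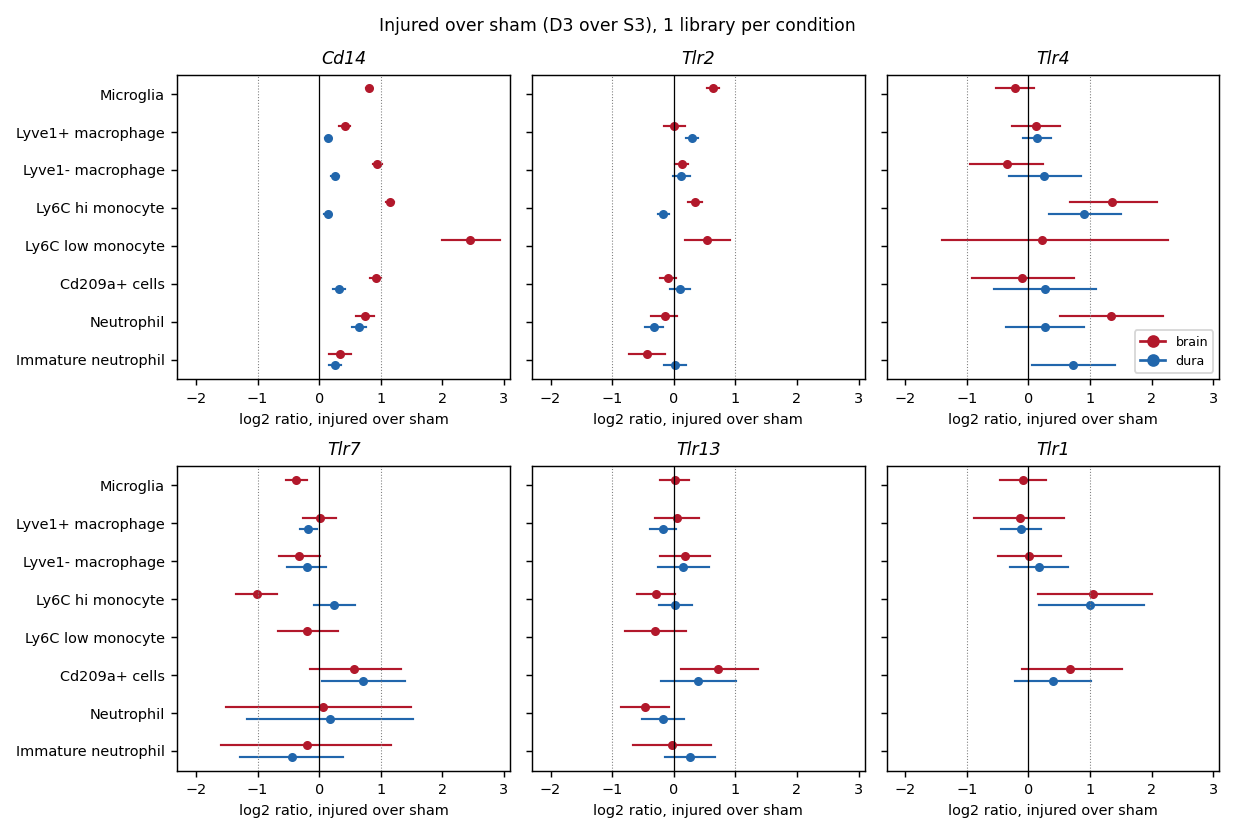
Log2 ratio of the level at D3 over S3 for 6 genes in 8 classes of brain (red) and dura (blue), drawn where a class had at least 50 cells in both libraries and the gene at least 20 UMIs over both. Points are ratios, bars exact 95% intervals for counting error, and dotted lines mark 2-fold. All Cd14 points lie above 0, and in each class with both tissues the brain point is the higher, as for Ly6C hi monocytes with 1.14 and 0.14. In neutrophils and immature neutrophils the Cd14 intervals of brain and dura overlap.

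The same comparison was made in the dura. Over 14 classes 67 pairs of gene and class had enough UMIs, of which 5 were past 2-fold higher at D3 and 0 lower, beside 2.47% higher and 3% lower of all gene and class pairs. The 5 were Cd14 in type 2 innate lymphoid cells (ILC2) and NK/ILC1, Tlr3 and Tlr7 in proliferating cells and Tlr13 in granulocyte precursors. The macrophage, monocyte and neutrophil classes compared gave none. Ly6C low monocytes, with 43 cells at S3 and 33 at D3, and infiltrating macrophages, with 1 and 20, were too few to compare. The count of 5 was 0 with thinning and with at least 100 UMIs, 9 with each cell weighted equally and 14 with no filter on cells, where the brain count was 8, so the order of the tissues depends on that filter. Cd14 in ILC2 turned direction with no filter, to -0.16, and Cd14 in NK/ILC1, where 7 of 75 cells held the 54 UMIs of D3, turned to -1.50 with the gate and -0.18 with doublets kept. The Cd14 interval lay above 0 in 7 of 8 classes other than lymphoid cells, with a median log2 ratio of 0.26, and in 2 of 5 lymphoid classes. In Ly6C hi monocytes Cd14 stood at 1248 (1212 to 1284) at S3 and 1375 (1342 to 1409) at D3, a log2 ratio of 0.14 (0.086 to 0.19), where the same class of the brain had 1.14. Lyve1+ macrophages held 982 and 1086, a log2 ratio of 0.15 (0.099 to 0.19), and Lyve1- macrophages 1278 and 1528, a log2 ratio of 0.26 (0.19 to 0.33). Neutrophils had the largest ratio of the classes other than lymphoid cells, with a log2 ratio of 0.65 (0.53 to 0.77). Their levels were 512 (480.1 to 545) and 802 (759 to 846). Immature neutrophils held 428 (408 to 449) and 512 (487 to 537), beside 409.6 and 517 in the brain.

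The other receptors of dura Ly6C hi monocytes were similar to the brain for some genes and not for others. Tlr4 stood at 9.702 (6.83 to 13.4) at S3 and 18.1 (14.5 to 22.4) at D3, a log2 ratio of 0.90 (0.33 to 1.502), and Tlr1 at 4.72 and 9.397, a log2 ratio of 0.99 (0.17 to 1.87), with intervals that overlap those of the brain. Tlr7 stood at 32.8 (27.3 to 39.05) and 38.9 (33.4 to 44.9), a log2 ratio of 0.25 (-0.091 to 0.59), beside -1.01 in the brain. Tlr2 stood at 509 and 452, a log2 ratio of -0.17 (-0.26 to -0.079), beside 0.34 in the brain. The difference between the tissues was not tested. Among border macrophages, dura Lyve1- cells held Tlr3 at 8.899 and 17.3, a log2 ratio of 0.96 (0.17 to 1.82) on 18 and 54 UMIs, and dura Lyve1+ cells held Tlr2 at 204 and 249.5, a log2 ratio of 0.29 (0.19 to 0.39). The dissociation genes had log2 ratios of -0.65 in dura Ly6C hi monocytes and -0.58 in dura neutrophils, and neutrophil markers in those monocytes stood at 1032 and 5622 CPM. Their part was not tested.

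Without injury, 63 pairs of gene and class could be compared between dura S3 and brain S3 over 12 classes, of which 3 were past 2-fold higher in the dura and 2 lower, beside 4.91% and 3.15% of all pairs. The 3 were Tlr3 in Cd209a+ cells, Cd14 in gamma-delta T cells and Tlr8 in neutrophils, the last with an interval that spanned 0. The 2 were Tlr7 in B cells and Tlr2 in NK/ILC1, which turned to 0.89 with the gate and 0.19 with doublets kept. Below that threshold, Ly6C hi monocytes of the dura held more Tlr2, with a log2 ratio of 0.71 (0.60 to 0.82), more Cd14, with 0.62 (0.55 to 0.69), and less Tlr7, with -0.95 (-1.29 to -0.62). Lyve1+ macrophages of the dura held more Cd14, at 982 beside 619.5, a log2 ratio of 0.66 (0.59 to 0.74). Over the whole class Tlr4 had a like level, at 41.6 beside 41.7, but the 2 clusters were mixed in other shares. In cluster 4 Tlr4 stood at 48.3 (41.2 to 56.3) in the dura beside 74.8 (58.5 to 94.1) in the brain, and in cluster 13 at 31.6 beside 28.5. Lyve1- macrophages of the dura held less Tlr2, with -0.41 (-0.54 to -0.27), and Cd209a+ cells too, with -0.58 (-0.73 to -0.43). Dura neutrophils held more Tlr2, with 0.46 (0.31 to 0.61), and less Tlr13, with -0.54 (-0.85 to -0.24), so the direction for Tlr2 was not the same in all myeloid classes. The dissociation genes had a log2 ratio of -0.67 in the monocytes, and their part was not tested.

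Microglia were divided further at a higher clustering resolution, again without the 10 genes. Nearly all fell into cluster 3 (398 cells at S3 and 408 at D3) and cluster 20 (34 and 215 cells). Cluster 3 held more P2ry12, a receptor of resting microglia, at 2011 CPM at S3 and 1471 at D3 beside 561 and 337 in cluster 20. Cluster 20 held more Spp1, a secreted protein of activated phagocytes, at 366 and 4267 beside 44.1 and 253. Its median depth was 30728 UMIs per cell at S3 and 32276 at D3 beside 9482 and 7626 in cluster 3. Summed infiltrating macrophage markers at D3 were 10617 in cluster 20 beside 3392 in cluster 3, and neutrophil markers 5622 beside 993. Summed microglia markers at D3 were 11772 in cluster 20 beside 22916 in cluster 3.

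Within each cluster the ratios of D3 to S3 for Cd14, Tlr2, Tlr3 and Tlr7 were nearer to 0 than over microglia as a whole. This did not hold in both clusters for Tlr1, Tlr4, Tlr6 and Tlr13, whose intervals spanned 0 within each cluster. Tlr4 had 0.35 (-0.010 to 0.72) in cluster 3 and -0.32 (-1.02 to 0.45) in cluster 20. Over the whole class it stood at 26.9 CPM at S3 and 23.2 at D3. Cd14 stood at 579.5 and 895 in cluster 3, a log2 ratio of 0.63 (0.55 to 0.70), and at 1339.7 and 1501 in cluster 20, a log2 ratio of 0.16 (0.082 to 0.25), beside 0.81 for the whole class. Tlr2 stood at 211 and 282 in cluster 3, a log2 ratio of 0.42 (0.29 to 0.55), and at 350.4 and 421 in cluster 20, a log2 ratio of 0.26 (0.11 to 0.43). The ratio of Tlr3 was -0.69 for the whole class, -0.25 (-0.63 to 0.12) in cluster 3 and 0.12 (-0.75 to 1.13) in cluster 20. Tlr7 had -0.21 (-0.43 to -0.0022) in cluster 3 and 0.086 (-0.30 to 0.50) in cluster 20. Both Tlr3 and Tlr7 had lower levels in cluster 20, which held more of the microglia at D3 than at S3.

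Within D3, cluster 20 held more Cd14 than cluster 3, with a log2 ratio of 0.75 (0.69 to 0.80), and more Tlr2, with 0.58 (0.48 to 0.68). It held less Tlr4, at 15.7 beside 36.7, with -1.22 (-1.596 to -0.85), less Tlr3, at 12.8 beside 28.6, with -1.16 (-1.58 to -0.74), and less Tlr7, with -0.45 (-0.66 to -0.24). Tlr13 stood at 41.5 beside 43.2 and did not differ beyond counting error. The clusters were found from other genes of the same cells, so these differences are a description.

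**Figure D3:**
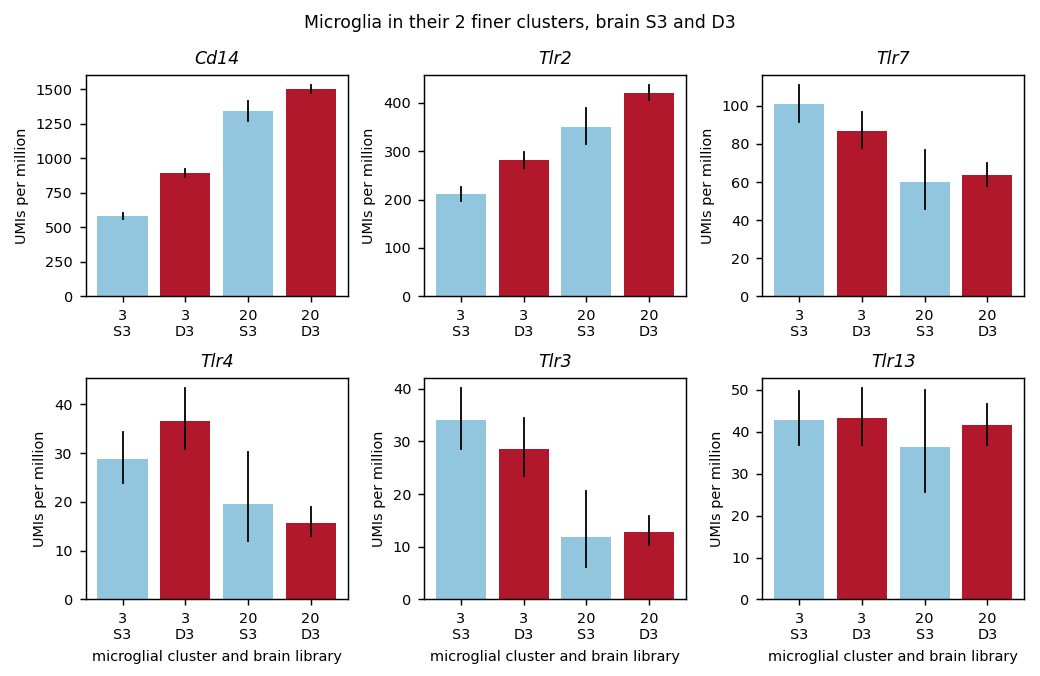
Levels of 6 genes in CPM (y axes from 0) in microglial clusters 3 and 20 at S3 and D3, with exact Poisson 95% intervals as bars. Cd14 and Tlr2 are higher in cluster 20 than in cluster 3, Tlr3, Tlr4 and Tlr7 are lower, and Tlr13 lies between 36.3 and 43.2 in all 4 bars.

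Infiltrating macrophages, led by Gpnmb, Arg1 and Spp1, numbered 1386 in brain D3, 7 in brain S3, 20 in dura D3 and 1 in dura S3, so the class is described in brain D3. It held Cd14 at 1514 (1501 to 1528) CPM, Tlr2 at 239 (234 to 245), Tlr4 at 19.2 (17.7 to 20.8), Tlr1 at 17.4 (16.02 to 18.9) and Tlr6 at 6.77 (5.896 to 7.73). Of the endosomal receptors it held Tlr13 at 53.1 (50.6 to 55.7), Tlr7 at 30.7 (28.8 to 32.7), Tlr8 at 4.52 (3.81 to 5.32), Tlr3 at 2.65 (2.12 to 3.28) and Tlr9 at 0.842 (0.555 to 1.23).

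Beside microglia of the same library, these macrophages differed most in the endosomal receptors Tlr8, Tlr3 and Tlr7. The other endosomal receptors differed less, with log2 ratios of 0.34 for Tlr13 and 0.37 for Tlr9, the latter with an interval that spanned 0. Tlr8 was higher, with 145 UMIs beside 4 and a log2 ratio of 3.602 (2.21 to 5.497), the single gene of 10 past 2-fold higher beside 7.2% of genes. With cells thinned to 2000 UMIs this ratio was 0.98 and not past 2-fold. Tlr3 was lower, at 2.65 beside 18.3, with -2.79 (-3.17 to -2.42), and Tlr7 was lower, at 30.7 beside 71.8, with -1.23 (-1.36 to -1.09), where 18% of genes were past 2-fold lower. The surface receptors and Cd14 differed by less than 2-fold, with Tlr6 at -0.83 (-1.15 to -0.50), Tlr2 at -0.63 (-0.69 to -0.58), Tlr4 at -0.27 (-0.49 to -0.053), Tlr1 at 0.081 (-0.17 to 0.33) and Cd14 at 0.24 (0.22 to 0.27). The median of all genes was -0.20, close to the Tlr4 ratio. The microglia pooled clusters 3 and 20, in which Tlr4 stood at 36.7 and 15.7 at D3, beside 19.2 in the macrophages. Cd14 stood at 895 and 1501 in these clusters, beside 1514 in the macrophages. Tlr3 and Tlr7 were lower in the macrophages than in either cluster.

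Beside Ly6C hi monocytes of brain D3, from which such macrophages are known to arise, fewer of the genes differed. Tlr1 was higher in infiltrating macrophages, at 17.4 beside 9.902, with a log2 ratio of 0.82 (0.36 to 1.31), and Tlr2 was lower, with -0.72 (-0.80 to -0.64). Tlr4 stood at 19.2 beside 18.8, Tlr7 at 30.7 beside 31.4 and Tlr3 at 2.65 beside 2.17, with no difference beyond counting error. Cd14 was lower by a small amount, with -0.24 (-0.28 to -0.21), and Tlr8 too, with -0.63 (-1.21 to -0.0029). Of the 10 genes 0 were past 2-fold higher, beside 15% of genes, and 1 lower, beside 7.84%, which was Tlr9 with -1.01 (-2.24 to 0.44) on 27 and 7 UMIs, a call lost in 8 of 11 other settings.

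Beside the Lyve1+ and Lyve1- macrophages of brain S3 pooled, infiltrating macrophages held more Cd14, at 1514 beside 796, with a log2 ratio of 0.93 (0.89 to 0.97). They held less Tlr7, at 30.7 beside 79.7, with -1.38 (-1.54 to -1.22), less Tlr8, at 4.52 beside 10.6, with -1.24 (-1.67 to -0.79), and less Tlr3, at 2.65 beside 6.22, with -1.23 (-1.799 to -0.64). These 3 of 10 genes were past 2-fold lower beside 22.6% of genes, and 0 were higher beside 6.91%. Tlr4 stood at 19.2 beside 32.8, with -0.77 (-1.002 to -0.53), Tlr6 had -0.61 (-1.02 to -0.18) and Tlr2 -0.43 (-0.50 to -0.36), where the median of all genes was -0.29. Tlr13 was slightly higher, with 0.29 (0.10 to 0.48). With ratios centred on the median gene, 1 gene was past 2-fold higher and 1 lower. The dissociation genes had a log2 ratio of -1.42 in this comparison, -0.79 beside microglia and -0.049 beside Ly6C hi monocytes, and their part was not tested.

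**Figure D4:**
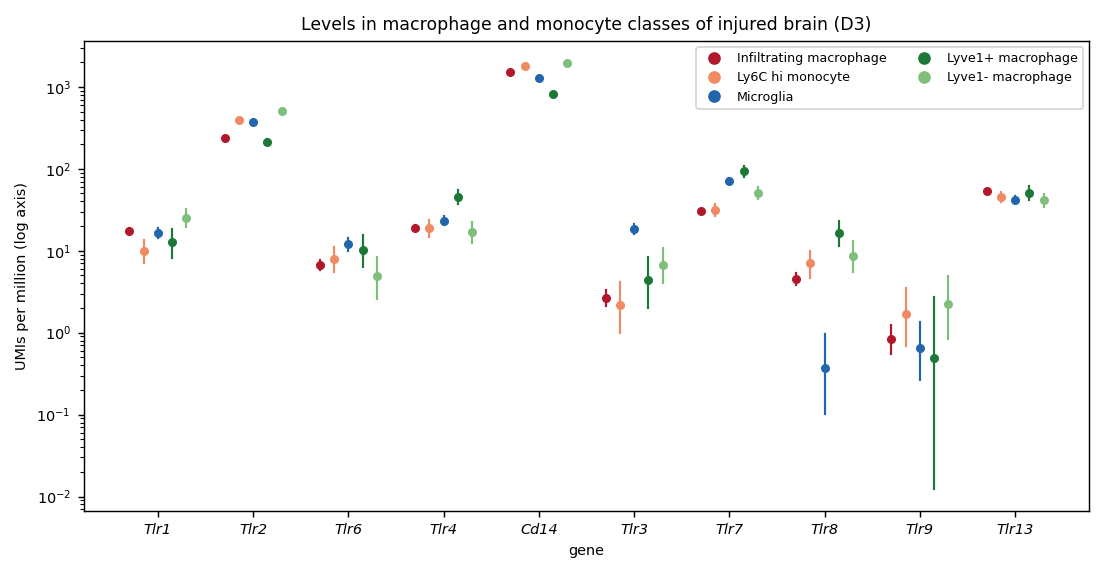
Level of each gene in CPM (log axis) in 5 macrophage and monocyte classes of brain D3, with exact Poisson 95% intervals as bars. Points are to be compared within a gene. Infiltrating macrophages sit next to Ly6C hi monocytes for Tlr4 and Tlr7, and microglia have the most Tlr3 and the least Tlr8 of the 5 classes.

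The 43 other genes of the pathway covered coreceptors, trafficking proteins, adaptors, kinases, transcription factors and brakes. In brain microglia the median of the list was -0.21 beside -0.18 for all genes. Of 40 with enough UMIs 2 were past 2-fold higher at D3 and 1 lower, beside 5.24% and 5.79% of all genes. The one with at least 100 UMIs was Irf7, a transcription factor of the type I interferon response, at 10.4 CPM at S3 and 71.5 at D3, a log2 ratio of 2.78 (2.38 to 3.21). Irf7 was also higher in brain Cd209a+ cells, at 92.9 and 223, with 1.26 (1.07 to 1.46), where Tnfaip3, a brake on nuclear factor kappa B, was lower, with -1.06 (-1.19 to -0.92). In brain neutrophils 1 of 30 was higher and 4 lower, beside 2.95% and 8.8% of all genes. Among the 4 were the brake Cyld at -1.11 and the transcription factors Nfkb2 at -1.07 and Rel at -1.06. In brain Ly6C hi monocytes 1 of 40 was higher and 1 lower, neither with 100 UMIs, beside 4.78% of all genes in each direction.

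Among coreceptors, the scavenger receptor Cd36, which assists Tlr2, was lower at D3 in brain Lyve1- macrophages, with a log2 ratio of -1.39 (-1.797 to -0.99), and in Ly6C low monocytes, with -1.01 (-1.28 to -0.74). In the dura Lbp, which carries lipopolysaccharide to Cd14, was higher at D3 in Ly6C hi monocytes, at 9.44 and 24.99, with 1.404 (0.85 to 1.99), and in Lyve1+ macrophages, at 4.22 and 10.6, with 1.33 (0.68 to 2.03). These were among 2 of 40 genes higher in the monocytes and 1 of 41 in the macrophages, beside 2.64% and 1.8% of all genes. Between dura and brain at S3, neutrophils of the dura held less of the brake Nfkbia, at 939 beside 2410.5, with -1.36 (-1.44 to -1.28), and Lyve1+ macrophages of the dura more Irf7, at 122 beside 52.6, with 1.21 (0.97 to 1.46).

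In infiltrating macrophages over microglia 6 of 41 pathway genes were past 2-fold higher and 5 lower, beside 7.2% and 18% of all genes. Lbp stood at 21.98 beside 0.931, a log2 ratio of 4.56 (3.67 to 5.63), Cd36 at 97.7 beside 13.9, Irak3, which restrains the pathway, at 18.7 beside 4.19, and the kinase Ikbke at 23.7 beside 5.68. Lower were Tlr12, at 0.218 beside 9.31, Ly86, the partner of Cd180, at 460.3 beside 1892, and the brakes Nfkbiz and Tnfaip3, with -1.32 and -1.24. Beside Ly6C hi monocytes 3 of 40 were higher and 3 lower, where 15% and 7.84% of all genes were. Cd36 stood at 97.7 beside 3.38 and the adaptor Myd88 at 43.6 beside 87.4. Beside brain S3 macrophages 3 of 41 were higher, namely Lbp, Ikbke and Irf7, and 5 lower, where 6.91% and 22.6% of all genes were. Among the 5 was Tlr5, a flagellin receptor, at 2.18 beside 7.204.

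Across 59 groups of class and library with at least 50 cells, the gene of 9463 with the profile most like that of Cd14 was App, with a Pearson correlation of log2 levels of 0.96, followed by Tlr2 with 0.95 and Ralb with 0.93. Tlr13 was most like Tlr2 (0.92), Tlr4 most like the complement receptor gene C5ar2 (0.88) and Tlr7 most like Dram2 (0.88). Tlr1 was most like Cd83 (0.78), a marker of activated B cells and dendritic cells, and its correlation with its partner Tlr2 was 0.36, beside 0.82 between Tlr6 and Tlr2. Tlr3 was most like Cst3 (0.84), Tlr8 like Tgfbi (0.86), Tlr6 like 1600010M07Rik (0.87) and Tlr9 like Col27a1 (0.71). The groups share 4 libraries and differ in depth, so the correlations are a description.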

How the data were processed

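CD45+ cells were profiled by single-cell RNA sequencing (10x Genomics, 3′) in 4 libraries, and the authors aligned and counted reads with Cell Ranger 3.1.0 on mm10 and normalised them with Seurat 3.1.0, per the labels and the methods. The deposited values are natural log values, ln(1 + UMIs / cell total × 10000), per gene and cell. Since the smallest value in a cell stands for 1 UMI, whole UMIs were recovered (tolerance 1e-06). Genes found in fewer than 3 cells of a library were not listed there and counted as 0. The filter asked for more than 1000 genes, fewer than 6000, and a mitochondrial share of no more than 7% in each cell. Scrublet's automatic call marked at most 0.06337% of barcodes of a library, so the highest scores were removed at 0.8% per 1000 barcodes. That left 14098 cells and between 37590286 and 72390201 UMIs per library.

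Cells were clustered in Seurat 5.3.0 (R 4.3.3) on 2500 variable genes without the members and their pathway, with 30 components, 20 neighbours and resolution 0.6, and named from 29 marker lists. No list's name was given to 6 clusters, which had fewer than 3 markers among their 10 leading genes, markers of another lineage, or different lists by mean fold and by leading genes. Of these, cluster 5 (Cd209a+ cells, between type 2 dendritic cells and Lyve1- macrophages) and cluster 22 (Cxcl3+ cells) are called by a leading gene and 4 stay unnamed. The minimum of 3 was set after seeing the data and keeps cluster 22 apart from neutrophils. Level intervals are exact Poisson, shares exact binomial and log2 ratios exact conditional, all at 95% and for counting error only. A gene counted as past 2-fold with at least 20 UMIs over both groups, and a count of 0 was set at a floor of 3 counts. Text was written for all 10 members, for pathway genes past 2-fold with at least 100 UMIs (at most 4 per direction and comparison) and for the 3 genes most alike by correlation of log2(level + 1) among genes with at least 1000 UMIs. Members, lists and rules were chosen with earlier results of these data known.

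The alternatives were a gate on each cell, thinning to 2000 UMIs, no filter on cells, doublets kept, resolution 1.2, all variable genes, the mean over cells and a minimum of 100 UMIs. Added after seeing the data were centring on the median gene, Lyve1+ macrophages without cluster 13, cluster 22 counted with the neutrophils and the split of microglia. Tested on simulated counts for infiltrating macrophages over sham brain macrophages (11827 genes), the ratios called 99.48% of genes changed 4-fold and 2.072% of unchanged genes. The simulated counts held counting error only, so these rates do not cover differences between animals or libraries. Python 3.11.15, numpy 2.4.6, scipy 1.17.1, pandas 2.3.3 and scanpy 1.11.5 were used.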

Additional observations from a re-analysis of the deposited data

Results flagged for a closer look

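Tlr2 in Ly6C hi monocytes stood out because its D3 over S3 ratios had opposite directions in the 2 tissues. The log2 ratio was 0.34 in the brain and -0.17 in the dura, each beyond counting error. The difference between the tissues was not tested, since each condition had 1 library.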

How the results depend on the processing

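With 1 library per condition, leaving out a replicate could not be done. No paired analysis was possible because each condition had 1 library and the ratios come from no test. Depth limits Tlr9, Tlr8 in microglia and the lymphoid classes most. In the brain 14 pairs of gene and class were past 2-fold higher at D3 and 5 lower. The higher count was 8 with cells gated one by one, 5 with cells thinned to 2000 UMIs, 8 with no filter on cells and 4 with at least 100 UMIs, and the lower count 3, 1, 2 and 1 in that order. In the dura the 5 higher pairs became 0 with thinning, 14 with no filter, 9 with the mean over cells and 0 with at least 100 UMIs, and the 0 lower pairs became 3 with the gate. For dura over brain in sham the 3 higher became 9 with no filter, 7 with the mean over cells and 0 with at least 100 UMIs, and the 2 lower became 4 with the gate, 1 with no filter, 4 with the mean over cells and 0 with at least 100 UMIs.

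For infiltrating macrophages over microglia the 1 gene higher became 0 with thinning and 2 with the mean over cells, and the 2 lower moved in none of the settings run. Over Ly6C hi monocytes the 0 higher became 1 with all variable genes, and the 1 lower became 0 with the gate, thinning, no filter, doublets kept, resolution 1.2, all variable genes, the mean over cells and at least 100 UMIs. Over sham brain macrophages the 0 higher became 1 with the gate, with thinning and with centring on the median gene, and the 3 lower became 1 with thinning and with centring. The leading class of a gene in a library was the same in 24 of 40 cases with the gate, under which 64.08% of cells fell in the class of their cluster and 28.75% lay within 0.1 of the next class.

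Of the 36 ratios past 2-fold, these turned direction. With thinning the log2 ratio of brain D3 over S3 was 1.31 for Tlr2 in B cells, -0.19 for Tlr3 in proliferating cells and 0.57 for Tlr1 in T cells, which was 0.31 with the gate. In the dura it was -0.16 for Cd14 in ILC2 with no filter, and for Cd14 in NK/ILC1 -1.50 with the gate and -0.18 with doublets kept. For Tlr2 in NK/ILC1, dura over brain in sham, it was 0.89 with the gate and 0.19 with doublets kept. Apart from the smaller number of counts under thinning and under the higher minimum, the cause was not tested. Of the 36 ratios, 23 stayed within their intervals with the gate and 19 with thinning. Joining cluster 22 to the neutrophils touched 2 of them, Tlr4 in brain neutrophils, D3 over S3, at 1.34 without and 1.40 with it, and Tlr8 in neutrophils, dura over brain, at 1.01 and 0.99. Leaving out cluster 13 touched the 3 over sham brain macrophages, which became -1.36 for Tlr3, -1.51 for Tlr7 and -1.26 for Tlr8.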
